A study of Mus musculus with 8 samples.

Results

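Interferon-stimulated genes are the genes that cells switch on after an interferon has bound its receptor. A fixed list of 35 of them was followed in cartilage of the mouse knee, out of 50462 gene identifiers in the deposited RNA-seq table. The list was chosen by gene symbol, all 35 symbols were found in the table (the RNA helicase RIG-I as Ddx58), and all 35 genes passed the filter on low counts and were tested. They comprise 4 sensors, 3 transcription factors, 3 Ifit genes and 5 genes of the oligoadenylate synthetase (Oas) family. The rest are 5 Mx and Gbp GTPases, 3 genes of the Isg15 system and 12 other effectors.

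The libraries were made from total RNA of medial knee cartilage, 1 library per male C57BL/6J mouse of wild-type genotype, and fell into 2 groups of 4. Naive mice were untreated, were labelled day 0 and were 11 weeks old. DMM mice were operated at 11 weeks and killed at day 42, when 17 weeks old. The operation, surgical destabilisation of the meniscus (DMM), cuts a ligament of the left knee that holds the medial meniscus in place and is used to model osteoarthritis after injury. It was done under isoflurane and with buprenorphine as analgesic, neither of which the untreated mice are described as receiving. Without sham-operated mice in the data used here, surgery, anaesthesia, analgesia and the 6 weeks of added age cannot be told apart. The libraries held between 12479443 and 16548002 estimated counts.

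Type I interferons signal through a receptor formed by Ifnar1 and Ifnar2 to the kinases Jak1 and Tyk2. Stat2 and Irf9 are subunits of the complex ISGF3, which is then formed and binds the interferon-stimulated response element (ISRE) in the promoters of target genes. The induced proteins sense viral nucleic acids, degrade or sequester viral RNA, and renew the response through Irf7, and many cells keep a low level of these transcripts without infection.

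Interferon-stimulated genes lay mostly lower in DMM than in naive cartilage, by small amounts. Of the 35, 6 were called lower at day 42. They included the ubiquitin-like modifier Isg15, the mitochondrial nucleotide kinase Cmpk2, the oligoadenylate synthetase Oas3 and the Oas-like gene Oasl1. The transcription factor Irf7 and the RNA-binding protein gene Ifit1 completed them. None of the 35 was called higher. A call required a DESeq2 Benjamini-Hochberg adjusted p of 0.05 or less over all 17760 tested genes and a change of 1.5-fold or more. Among all tested genes 5.92% were called lower by this rule and 7.75% were called higher. On the adjusted p alone, without the fold threshold, Ifih1, Mx1 and Trim30a were added to make 9 members lower and 0 higher, where 11.2% of all tested genes were lower. edgeR's quasi-likelihood test with the same thresholds called 5 members lower (all but Oasl1) and 0 higher, where it called 4.4% of its 18445 tested genes lower.

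The log2 fold change, DMM over naive, was below 0 for 34 of the 35 members and for 51.7% of all tested genes. Its median was -0.35 over the members and -0.02 over all tested genes, with a range over the members from -1.06 (Isg15) to 0.13 (Ifi27). An unadjusted DESeq2 p under 0.05 was found for 19 members, all lower in DMM. The share of all tested genes under this unadjusted threshold was not counted, so the 19 cannot be set against a background. For 8 members every DMM library lay below every naive library, which was also true of 10.3% of all tested genes, and no member showed the opposite. The sign of the small differences depended on the scaling. Scaling by the total count moved the median of all tested genes from -0.02 to 0.14. Under it 26 of the 35 members lay below 0, with a median of -0.19, beside 34.7% of all tested genes. The 26 were counted on rounded values and leave out Stat2, which lay just below 0 (-0.00). Under this scaling 3 members were called lower (Isg15, Cmpk2 and Oas3) and 0 higher, and over all genes it called 489 lower and 2030 higher, compared with 1052 and 1377 under the scaling used here.

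**Figure D1:**
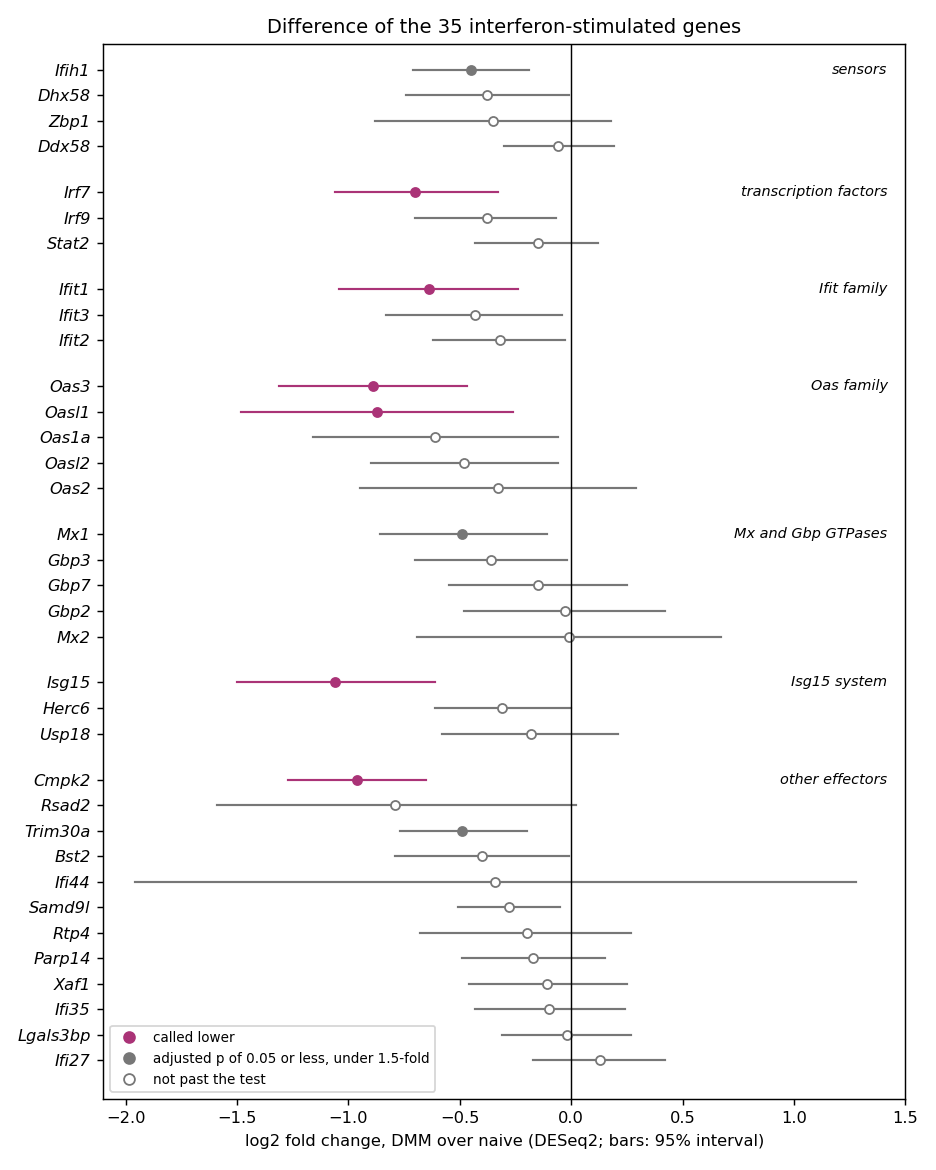
Log2 fold change of each of the 35 interferon-stimulated genes, DMM over naive (x axis, DESeq2), with its 95% interval, grouped by role. Magenta points mark the 6 genes called lower, filled grey points the 3 genes past the adjusted p but under 1.5-fold, and open points the rest. Only Ifi27 lies above 0 under this scaling.

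The members lie on 13 chromosomes, and 15 of them fall into 6 clusters in which neighbouring members are at most 200 kb apart. Rsad2 (chromosome 12, 26442746 to 26456452, GRCm38, minus strand) and Cmpk2 (26469204 to 26479837, plus strand) point away from each other with 12752 bases between them. The other clusters are Oas2, Oas3 and Oas1a on chromosome 5, Oasl2 and Oasl1 elsewhere on that chromosome, Ifit2, Ifit3 and Ifit1 on chromosome 19, Gbp7, Gbp3 and Gbp2 on chromosome 3, and Mx1 and Mx2 on chromosome 16, with genes that are not members in between in the Oas and Ifit clusters.

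Promoter sequence was searched for the ISRE core GAAANNGAAA on both strands, with overlapping matches counted, in the 250 bases before and 50 bases after each RefSeq start site. The core occurred in 14 of the 26 members with a promoter in the RefSeq table (53.8%), compared with 3.99% of 27025 genes and 3.44% of 32851 promoters. It was present in 3 of the 6 genes called lower (Isg15, Ifit1 and Oas3) and in 11 of the 20 members with a promoter that were not called. These letters were not found in the windows of Cmpk2, Irf7 and Oasl1. Dhx58, Ifi27, Mx1, Mx2, Oas2, Parp14, Rtp4, Usp18 and Zbp1 have no promoter in the table. Stretches of 60 bases are shown for 6 genes, those of the called genes with a match and of 3 uncalled members that share a cluster with a called gene. They run 5′ to 3′ on the gene's strand (RefSeq, GRCm38.p6), with matches in capitals, and a match on the other strand reads TTTCNNTTTC.
Isg15 (chr4:156200856-156200915, minus strand): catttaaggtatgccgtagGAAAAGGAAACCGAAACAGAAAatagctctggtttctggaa
Ifit1 (chr19:34640769-34640828, plus strand): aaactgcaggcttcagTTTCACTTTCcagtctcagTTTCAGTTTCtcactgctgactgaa
Oas3 (chr5:120777700-120777759, minus strand): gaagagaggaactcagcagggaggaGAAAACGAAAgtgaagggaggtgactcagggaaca
Ifit3 (chr19:34583365-34583424, plus strand): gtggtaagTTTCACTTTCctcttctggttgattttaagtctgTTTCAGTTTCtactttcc
Oas1a (chr5:120907526-120907585, minus strand): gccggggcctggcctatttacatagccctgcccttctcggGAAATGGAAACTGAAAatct
Rsad2 (chr12:26456538-26456597, minus strand): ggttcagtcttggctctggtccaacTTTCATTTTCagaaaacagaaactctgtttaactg
In Isg15 the 3 matches overlap and span positions -78 to -57 relative to the start site. In Ifit1 and Ifit3 a pair of matches stands apart, from -104 to -95 and -85 to -76 in Ifit1 and from -156 to -147 and -122 to -113 in Ifit3. Isg15, Ifit1 and Oas3 were called lower, whereas Ifit3, Oas1a and Rsad2 with matches of the same core were not.

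Of the sensors, which recognise viral RNA or DNA in the cell, none was called at 1.5-fold by DESeq2 or edgeR. All 4 had a log2 fold change below 0. An unadjusted DESeq2 p under 0.05 was found for 2, a share not counted over all tested genes. Ifih1 (MDA5, a sensor of long double-stranded RNA) had normalised counts (counts divided by the library's size factor) of 420.4, 392.5, 438.8 and 398.0 in naive replicates 1 to 4. In DMM replicates 1 to 4 its counts were 350.0, 269.8, 317.8 and 269.0. All DMM libraries therefore lay below all naive libraries, and the log2 fold change was -0.45 (SE 0.13, DESeq2 adjusted p = 0.00539), short of 1.5-fold. Ddx58 (RIG-I, which binds RNA with a 5′ triphosphate) differed by -0.06 with a 95% interval from -0.30 to 0.19. Dhx58 (LGP2, a regulator of these helicases) differed by -0.38 and Zbp1, a sensor of Z-form nucleic acid, by -0.35, and neither passed the test (DESeq2 adjusted p = 0.131 and 0.388).

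Among the transcription factors, Irf7 was called lower and the ISGF3 subunits Irf9 and Stat2 were not. Irf7 (chromosome 7, 141262706 to 141266481), which amplifies the type I interferon response, had normalised counts of 410.7, 404.4, 422.8 and 259.7 in naive libraries. Its counts in DMM libraries were 275.3, 209.6, 236.3 and 202.2. Naive replicate 4 stood apart from the other naive libraries and lay below DMM replicate 1, so the groups overlapped. The log2 fold change was -0.70 (SE 0.18, DESeq2 adjusted p = 0.00185), the call held whichever of the 8 libraries was left out, and under total count scaling the difference of -0.54 fell short of 1.5-fold. Irf9, among the 5 members with the highest mean count, had 715.0, 755.6, 592.9 and 519.3 in naive and 602.9, 444.0, 494.7 and 438.6 in DMM libraries. The groups overlapped and the difference of -0.38 (SE 0.16) did not pass the test (DESeq2 adjusted p = 0.0705). Stat2 differed by -0.15 with a 95% interval from -0.43 to 0.12. Irf7 shares exon sequence on the opposite strand with Phrf1 and Irf9 on the same strand with Rnf31, and no source says whether reads were counted by strand.

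All 3 Ifit genes, whose proteins bind viral RNA and block its translation, lay below 0, and Ifit1 was called. Ifit1 (chromosome 19, 34640871 to 34650009) had normalised counts of 126.6, 123.7, 160.5 and 107.7 in naive and 97.0, 83.8, 65.9 and 86.6 in DMM libraries. The groups did not overlap, and the log2 fold change was -0.64 (SE 0.20, DESeq2 adjusted p = 0.0115). The call was lost without naive replicate 3 (adjusted p = 0.0889 by DESeq2), without DMM replicate 3 (adjusted p = 0.0535 by DESeq2) and under total count scaling. Ifit3 differed by -0.43 and Ifit2 by -0.32, with adjusted p of 0.106 and 0.102 (DESeq2). Ifit3 shared 61.8% of its 31-base words with Ifit3b, so the split of reads between them is uncertain, and Ifit3b, counted separately, differed by -0.62 without passing the test (DESeq2 adjusted p = 0.142). Ifit1 shared 10.8% of its words with other genes.

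The Oas genes had the lowest median difference of the 7 roles, -0.61 over 5 genes. Oas proteins bind double-stranded RNA and make 2′-5′ oligoadenylates, and the Oas-like proteins Oasl1 and Oasl2 belong to the same family by sequence. Oas3 (chromosome 5, 120753098 to 120777661) had 502.1, 558.8, 419.5 and 272.1 normalised counts in naive and 266.2, 211.8, 268.4 and 198.6 in DMM libraries. The lowest naive library, replicate 4, lay just above the highest DMM library. The log2 fold change was -0.89 (SE 0.22, DESeq2 adjusted p = 5.98e-04), and the call held whichever of the 8 libraries was left out. Oasl1 (chromosome 5, 114923240 to 114937915) had low counts of 51.0, 75.8, 94.2 and 43.1 in naive and 44.8, 35.5, 36.2 and 27.1 in DMM libraries. Naive replicate 4 lay below DMM replicate 1, and the log2 fold change was -0.87 (SE 0.31, DESeq2 adjusted p = 0.0267). This call held in 3 of 8 fits without a single library and was lost without naive replicate 2 (adjusted p = 0.101 by DESeq2), naive replicate 3 (0.169), DMM replicate 2 (0.0639), DMM replicate 3 (0.0567) or DMM replicate 4 (0.0905). It was also lost with edgeR (adjusted p = 0.0552), under total count scaling (0.0763 by DESeq2) and without independent filtering (0.0519 by DESeq2). Oasl1 also shares exon sequence with the antisense gene Gm13822.

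Oas1a, Oasl2 and Oas2 were not called. Their differences were -0.61, -0.48 and -0.33, with adjusted p of 0.0995, 0.088 and 0.513 (DESeq2). For Oas1a the DMM counts were 98.7, 50.5, 46.1 and 78.5 and for Oas2 178.3, 106.4, 52.7 and 86.6, so DMM replicate 1 was the highest of its group for both. Without DMM replicate 1 Oas1a (-0.84) and Oasl2 (-0.69) were called lower, with adjusted p of 0.0224 and 0.00561 (DESeq2). Oasl2 was also called without naive replicate 4 (-0.61, adjusted p = 0.0159 by DESeq2). No other fit without a single library called either gene, with adjusted p up to 0.275 (Oas1a) and 0.258 (Oasl2) by DESeq2. Oas1a shared 68.8% of its 31-base words with other genes, chiefly Oas1g.

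Of the GTPases, Mx1 was lower on the adjusted p alone and the rest did not pass the test. Mx1 had 131.0, 119.7, 149.8 and 115.7 normalised counts in naive and 109.5, 101.0, 80.7 and 77.6 in DMM libraries. The groups did not overlap, and the log2 fold change was -0.49 (SE 0.19, DESeq2 adjusted p = 0.0485). Its 95% interval reached from -0.86 to -0.11. Without DMM replicate 1 it was called at 1.5-fold (-0.59, adjusted p = 0.0375 by DESeq2). Leaving out any other library put the adjusted p above 0.05, up to 0.198 without naive replicate 3 (DESeq2). It was also above 0.05 with edgeR (0.0696). In DESeq2 it was 0.0645 with TMM factors, 0.0937 without independent filtering and 0.235 under total count scaling. With at least 10 counts in at least 4 libraries it stayed at 0.0438 (DESeq2). Mx2, which is annotated as a polymorphic pseudogene, had between 20.2 and 46.0 counts per library and differed by -0.01 (95% interval -0.69 to 0.67). These are transcript counts, and whether working Mx proteins were made was not tested. The guanylate-binding proteins Gbp3, Gbp7 and Gbp2, which attack the vacuoles of intracellular pathogens, differed by -0.36, -0.15 and -0.03, with adjusted p of 0.125, 0.673 and 0.958 (DESeq2). The signs of Mx2, Gbp2 and Gbp7 turned under total count scaling.

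Isg15 had the lowest log2 fold change of the 35 members, while the other 2 genes of its system did not pass the test. Isg15 (chromosome 4, 156199424 to 156200818), a ubiquitin-like protein that is joined to other proteins, had 112.6, 113.1, 113.4 and 77.1 normalised counts in naive libraries. Its DMM counts were 60.5, 43.0, 51.9 and 44.2, all below the lowest naive library. The DMM mean was 48.1% of the naive mean, the log2 fold change was -1.06 (SE 0.23, DESeq2 adjusted p = 7.97e-05), and the call held whichever of the 8 libraries was left out. Herc6, the ligase that attaches Isg15 in the mouse, differed by -0.31 and Usp18, the protease that removes it and restrains the receptor, by -0.18, with adjusted p of 0.147 and 0.583 (DESeq2). Isg15 shared 13.1% of its 31-base words and Herc6 13.8% with other genes.

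**Figure D2:**
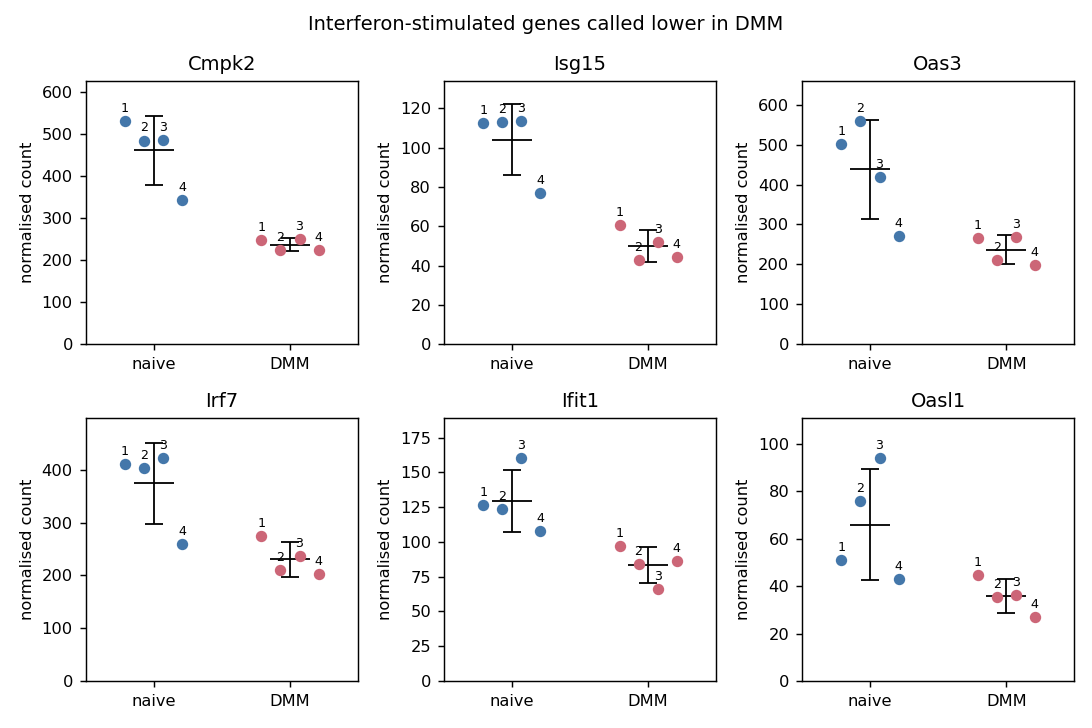
Normalised counts (y axis, from 0) of the 6 interferon-stimulated genes called lower, in 4 naive (blue) and 4 DMM (red) libraries, numbered by replicate. Bars give the mean and SD. Naive replicate 4 is the lowest naive library in all 6 panels, and the groups do not overlap for Cmpk2, Isg15, Oas3 and Ifit1.

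Cmpk2 had the smallest adjusted p of the members. It encodes a mitochondrial kinase of UMP and CMP and is the only called gene among the 12 other effectors. It had 530.3, 484.3, 484.8 and 343.6 normalised counts in naive and 248.8, 223.6, 250.3 and 224.7 in DMM libraries. The DMM libraries lay close together and below every naive library. The log2 fold change was -0.96 (SE 0.16, DESeq2 adjusted p = 9.3e-08), the DMM mean was 51.4% of the naive mean, and the call held whichever of the 8 libraries was left out. No 31-base word of Cmpk2 occurred in another gene.

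Its divergent neighbour Rsad2, which encodes viperin, an enzyme that makes a chain-terminating nucleotide, varied far more between mice. Rsad2 had the highest mean count of the members, with 2190.6, 3047.9, 1943.6 and 1426.4 in naive and 1100.5, 682.6, 2089.3 and 1117.3 in DMM libraries. DMM replicate 3 lay above naive replicates 3 and 4. The log2 fold change of -0.79 (SE 0.41) did not pass the test (DESeq2 adjusted p = 0.166). Without DMM replicate 3 it was -1.15 and was called (adjusted p = 7.33e-05 by DESeq2). Rsad2 was not called in any other fit without a single library, with adjusted p from 0.105 to 0.39 (DESeq2). The coefficient of variation of Rsad2 was 31.4% in naive and 47.8% in DMM libraries, compared with 17.6% and 6.2% for Cmpk2.

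Samd9l, Parp14 and Lgals3bp were the other members with high counts, and none was called. Samd9l, an antiviral and growth-restraining protein, had 1518.7, 1581.8, 1736.0 and 1351.5 normalised counts in naive and 1094.7, 1336.2, 1349.2 and 1308.7 in DMM libraries. Every DMM library lay below every naive library, although naive replicate 4 and DMM replicate 3 were nearly equal, and the difference of -0.28 (SE 0.12) did not pass the test (DESeq2 adjusted p = 0.0666). Parp14, an ADP-ribosyltransferase, had 1396.5, 1367.6, 1279.0 and 960.4 in naive and 1327.7, 1218.0, 970.6 and 924.2 in DMM libraries, a difference of -0.17 (95% interval -0.49 to 0.15). Lgals3bp, a secreted galectin-binding glycoprotein, had 727.3, 856.8, 679.6 and 574.9 in naive and 709.9, 782.6, 726.1 and 579.4 in DMM libraries. Its difference was -0.02 (95% interval -0.31 to 0.27), with replicate 4 the lowest library of both groups.

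Bst2 (tetherin, which holds budding virions at the cell surface) had 90.6, 129.0, 94.2 and 93.0 normalised counts in naive and 82.9, 75.2, 69.1 and 79.4 in DMM libraries. The groups did not overlap, but the difference of -0.40 (SE 0.20) did not pass the test (DESeq2 adjusted p = 0.139). Trim30a, a negative regulator of inflammatory signalling, was lower on the adjusted p alone, with -0.49 (SE 0.14, DESeq2 adjusted p = 0.0062) and mean counts (± SD, n = 4 per group) of 585.0 ± 70.7 in naive and 418.1 ± 56.5 in DMM libraries. The other 5 effectors were Xaf1, Ifi35, Ifi44, Rtp4 and Ifi27, with differences from -0.34 (Ifi44) to 0.13 (Ifi27) and adjusted p of 0.621 or more. Ifi44 varied most, with 30.8, 126.4, 179.8 and 31.7 counts in naive and 172.5, 29.0, 40.3 and 48.7 in DMM libraries. Naive replicates 2 and 3 and DMM replicate 1 thus lay between 126.4 and 179.8 counts and the other 5 libraries between 29.0 and 48.7, and the 95% interval of its difference ran from -1.96 to 1.28.

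Members differed between mice of a group as well as between groups. The median over the members of log2(normalised count + 1) minus its 8-library mean was 0.22, 0.28, 0.32 and -0.09 in naive replicates 1 to 4. In DMM replicates 1 to 4 it was 0.02, -0.11, -0.26 and -0.33. Naive replicate 4 therefore lay below DMM replicate 1. The same median over all tested genes lay between 0.00 and 0.03 in every library, where the scaling by median of ratios holds it near 0. Naive replicate 4 was the lowest naive library for 26 of the 35 members and for 31.7% of all tested genes. DMM replicate 1 was the highest DMM library for 23 of the 35 members and for 21.9% of all tested genes. Naive replicate 3 was the highest of its group for 18 members and DMM replicate 4 the lowest of its group for 18, beside 17.5% and 27.4% of all tested genes. The median coefficient of variation of all 35 members was 17.1% in naive and 15.4% in DMM libraries. It was 11.5% and 11.7% over 11036 genes whose mean normalised count was 100 or more. The members were not held to this minimum and some, such as Mx2 and Oasl1, lay below it. The medians therefore cover unlike ranges of counts and do not show that members varied more than other genes of their level.

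**Figure D3:**
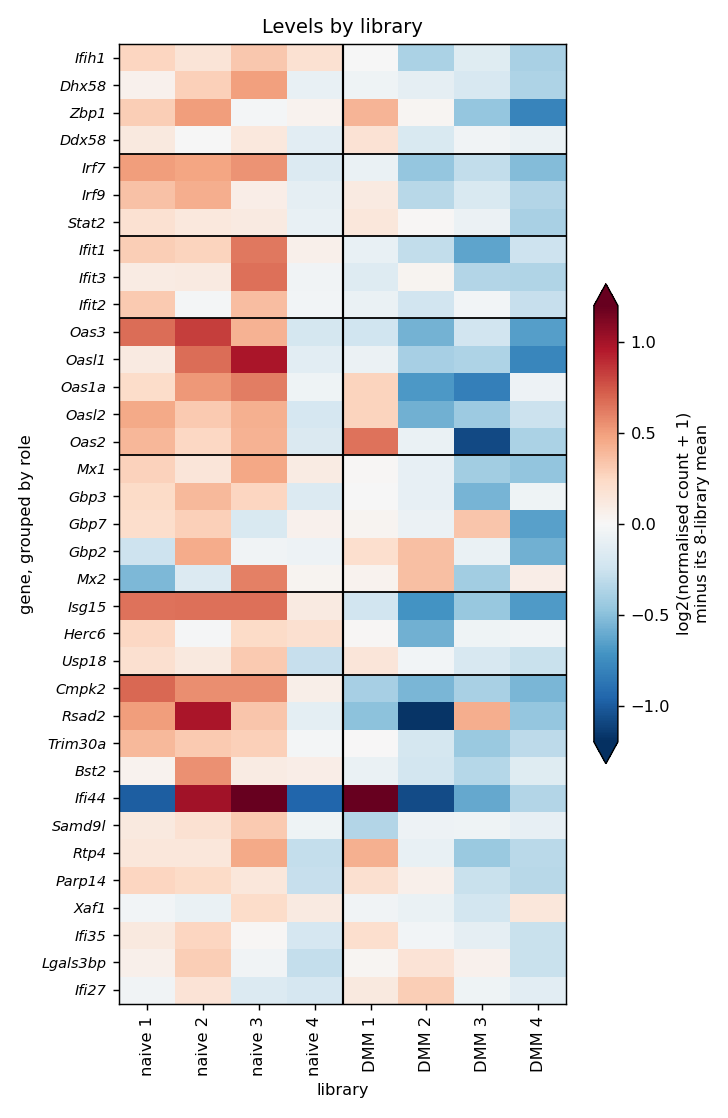
Log2(normalised count + 1) minus its 8-library mean for the 35 members (rows, grouped by role with horizontal lines) in each library (columns), red above and blue below the mean; the darkest colours also hold values beyond the scale, as in Ifi44. Naive replicate 4 is pale or blue in most rows, and DMM replicate 1 is paler than the other DMM libraries.

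Other genes of the interferon pathway were read from 8 lists of 133 genes in the table, of which 110 were tested. Of these 6 were called lower and 2 higher, beside the 5.92% and 7.75% of all tested genes. On the adjusted p alone 20 were lower and 2 higher, where 11.2% of all tested genes were lower. The median log2 fold change was -0.22 with 86 of 110 below 0, and under total count scaling it was -0.06 with 69 below 0. The count of 6 lower genes was the least settled of these values. It was 1 under total count scaling, 1 without naive replicate 1, 2 without naive replicate 2 and 13 without naive replicate 4.

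Interferon transcripts themselves were at the floor of detection. None of the 21 ligand genes had enough counts to be tested, 15 had 0 counts in every library, Ifnb1 among them, and the highest value in a library was 9.1 normalised counts (Ifnk). At these totals, 0 counts in a library allow up to 3 counts, so a lower level would not be detectable at this depth. None of the 6 receptor genes was called by DESeq2 or edgeR. Of the 6, 2 had an unadjusted DESeq2 p under 0.05, a share not counted over all tested genes. On the adjusted p alone 1 was lower, where 11.2% of all tested genes were lower. This was the interferon lambda receptor gene Ifnlr1, named after its values were seen, with a difference of -0.58 (SE 0.23, DESeq2 adjusted p = 0.0475) that fell short of 1.5-fold. Ifnar1 differed by 0.04 (95% interval -0.15 to 0.22) and Ifnar2 by -0.20 (-0.38 to -0.01), and the interferon gamma receptor genes Ifngr1 by -0.16 (-0.33 to 0.02) and Ifngr2 by 0.02 (-0.19 to 0.22).

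Of the 9 signal transducers none was called at 1.5-fold by DESeq2 or edgeR. An unadjusted DESeq2 p under 0.05 was found for 3, a share not counted over all tested genes. On the adjusted p alone 2 were lower, where 11.2% of all tested genes were lower. Irf8, a factor of myeloid cells that was named after its values were seen, differed by -0.44 (DESeq2 adjusted p = 0.0144). Irf1, a factor induced mainly by interferon gamma, differed by -0.20 (SE 0.15, DESeq2 adjusted p = 0.366).

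The only pathway genes called higher were an inhibitor and a sensor. Socs3, which blocks Jak kinases downstream of several cytokine receptors and is not particular to interferon, had 129.3, 187.6, 192.6 and 231.3 normalised counts in naive and 461.1, 361.2, 496.4 and 275.3 in DMM libraries. All DMM libraries lay above all naive libraries, and the log2 fold change was 1.11 (SE 0.22, DESeq2 adjusted p = 2.6e-05). Tlr3, the endosomal receptor of double-stranded RNA, had 40.5, 45.2, 56.7 and 45.4 in naive and 73.8, 87.1, 83.1 and 77.6 in DMM libraries, also without overlap, and changed by 0.78 (SE 0.22, DESeq2 adjusted p = 0.00364). Both calls held whichever of the 8 libraries was left out.

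Among genes induced by interferon gamma, 2 of 13 were called lower. The immunity-related GTPase gene Igtp had 343.8, 409.8, 304.0 and 248.3 normalised counts in naive and 217.3, 170.9, 207.4 and 139.9 in DMM libraries, without overlap. Its difference was -0.83 (SE 0.20, DESeq2 adjusted p = 4.71e-04) and the call held whichever of the 8 libraries was left out. Igtp shared 15.9% of its 31-base words with Irgm2. Tgtp2 differed by -0.76 (SE 0.26, DESeq2 adjusted p = 0.0204), but 90.5% of its 31-base words occur in other genes, chiefly Tgtp1. Of the 14 genes of MHC class I presentation all lay below 0, beside 51.7% of all tested genes, with a median of -0.30. Under total count scaling 11 of the 14 lay below 0, beside 34.7%, with a median of -0.14. The immunoproteasome subunit Psmb9 was called (-0.63, SE 0.21, DESeq2 adjusted p = 0.0139). Of the 46 tested other interferon-induced genes 3 were called lower, a share near the 5.92% of all tested genes. These were Ifi47, an immunity-related GTPase (-0.68, DESeq2 adjusted p = 0.00404), Slfn2, a regulator of T cell and monocyte quiescence (-0.62, DESeq2 adjusted p = 0.00242), and the exonuclease Isg20 (-0.72, DESeq2 adjusted p = 0.0175).

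**Figure D4:**
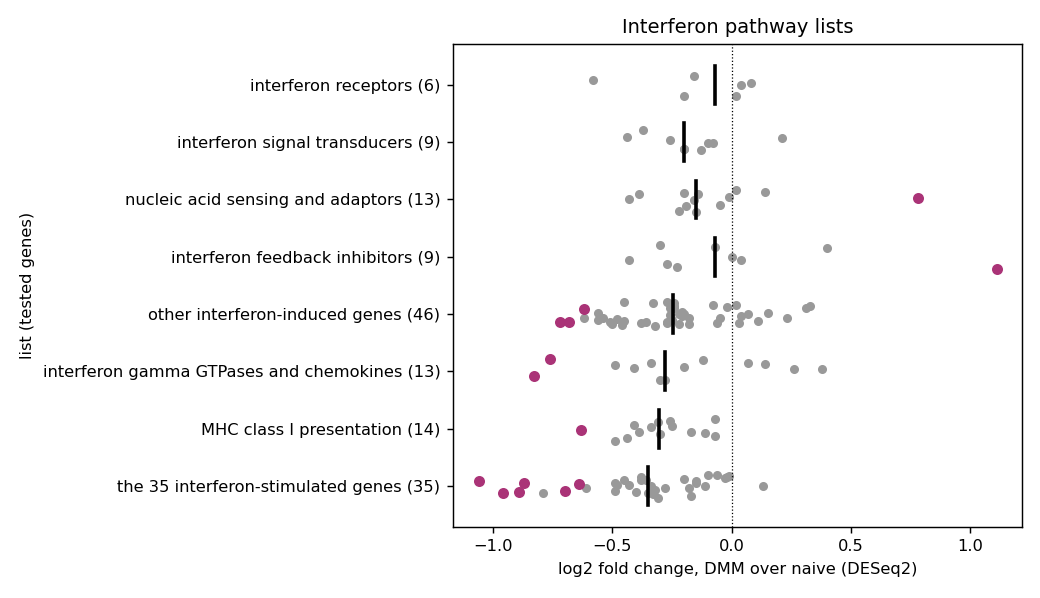
Log2 fold change, DMM over naive (x axis, DESeq2), of each tested gene of 7 other interferon pathway lists and of the 35 interferon-stimulated genes, with the number tested in brackets. Magenta points are called genes and black bars the medians, which run from -0.07 (receptors) to -0.35 (the 35 members); the 2 points farthest right are Tlr3 and Socs3.

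Neutrophil lineage and erythroid marker transcripts, which had high counts in these libraries, were lower in DMM as the members were, whereas other blood cell markers moved less or the other way. The counts of called markers below stand beside 5.92% of all tested genes called lower and 7.75% called higher. The cartilage held chondrocyte markers at a summed 40878 to 80672 normalised counts in naive and 101924 to 173899 in DMM libraries, with 6 of 13 called higher. Neutrophil lineage markers summed to 138437 to 205883 in naive and 66684 to 127547 in DMM libraries, with 13 of 15 called lower, and erythroid markers to 155380 to 303762 and 80192 to 171793, with 9 of 10 called lower. Monocyte and macrophage markers summed to 10443 to 11844 in naive and 9368 to 10433 in DMM libraries, with 1 of 12 called lower, near the share of all tested genes. T and NK cell markers summed to 1128 to 1589 and 723 to 1190, with 2 of 11 lower. Markers of plasmacytoid dendritic cells, the main producers of type I interferon, summed to 486 to 649 and 515 to 726, with 1 of 7 higher. B cell markers summed to 2451 to 4526 and 2812 to 7342, with 0 of 11 called. Bone, vessel and synovial markers had higher ranges in DMM. Osteoblast and osteocyte markers summed to 21329 to 28665 and 43861 to 78103, with 8 of 9 called higher. Endothelial markers summed to 4256 to 5118 and 5725 to 6526, with 4 of 9 higher. Osteoclast markers summed to 5037 to 9762 and 7242 to 12475, with 1 of 7 higher. Synovial fibroblast markers summed to 2789 to 5203 and 4232 to 10009, with 3 of 7 higher. Skeletal muscle markers lay between 113 and 502 in all libraries but DMM replicate 1 (1315), with 1 of 7 called higher. No marker in these lists was at 0 in every library. In bulk RNA fewer cells of a type and less RNA per cell cannot be told apart, and the part of these cells in the lower counts of the members was not tested.

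The marker sums did not follow the members in the same way in every library. Naive replicate 4, with the lowest member median of its group, also had the lowest neutrophil sum (138437) and the lowest erythroid sum (155380) of the naive libraries. DMM replicate 1, with the highest member median of its group, had the lowest neutrophil sum of all libraries (66684), an erythroid sum of 85552 and a B cell sum of 5433, the latter exceeded only in DMM replicate 2 (7342).

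Rsad2, Isg20 and the erythroid sum ranked the libraries in nearly the same order, a comparison made after the values had been seen. The order of the libraries by Rsad2 count was, from the highest, naive 2, naive 1, DMM 3, naive 3, naive 4, DMM 4, DMM 1 and DMM 2. Isg20 had 802.0, 941.9, 622.9 and 546.5 normalised counts in naive and 356.6, 355.8, 685.7 and 370.0 in DMM libraries, which is the same order, although DMM replicates 1, 2 and 4 were nearly equal. The erythroid sum was 253656, 303762, 177892 and 155380 in naive and 85552, 80192, 171793 and 85318 in DMM libraries, an order that differed only by the places of naive 3 above DMM 3 and of DMM 1 above DMM 4. DMM replicate 3 was thus high in all 3 measures. For Cmpk2 its 250.3 counts lay close to the 248.8 of DMM replicate 1, and whether erythroid cells contributed to the Rsad2 and Isg20 counts was not tested.

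**Figure D5:**
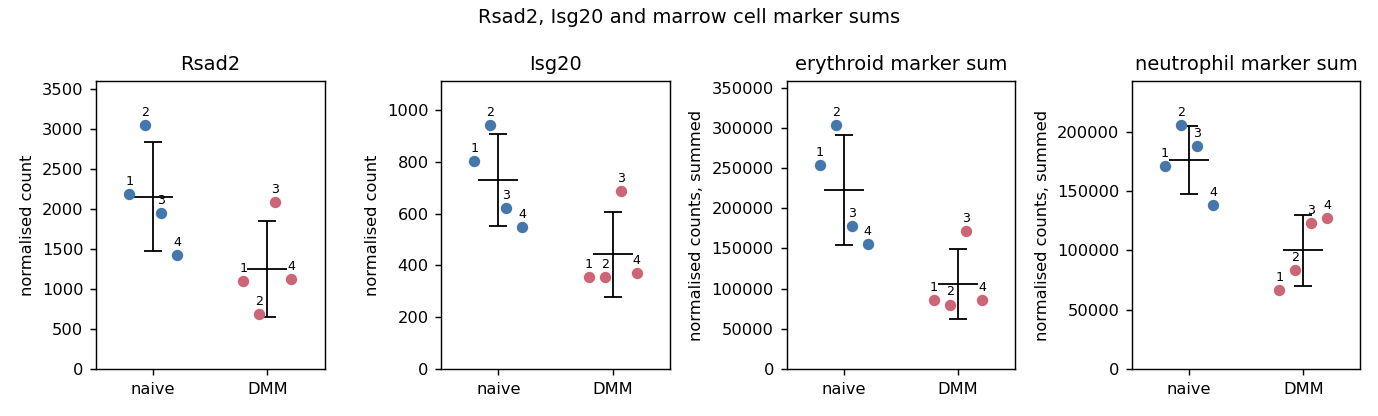
Normalised counts of Rsad2 and Isg20 and summed normalised counts of 10 erythroid and 15 neutrophil lineage markers (y axes, from 0) in naive (blue) and DMM (red) libraries, numbered by replicate, with mean and SD. DMM replicate 3 is the highest DMM library for Rsad2, Isg20 and the erythroid sum, and DMM replicate 4 for the neutrophil sum.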

How the data were processed

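RNA-seq libraries of medial knee cartilage from 4 naive and 4 DMM mice were grouped by their labels. The deposited table holds estimated counts per gene (39.2% are not whole numbers), which the authors made by trimming with Trimmomatic, pseudo-alignment with Kallisto and summing with tximport. The methods name GRCm38 with an Ensembl release of another assembly and the labels' processing notes GRCh38, a human build, so the build is uncertain. The labels and the methods name different library kits. Kallisto divides reads between near-identical genes, and shared 31-base words were therefore counted in GENCODE vM21 transcripts, which also gave coordinates (GRCm38) by gene identifier.

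Counts were rounded and tested with DESeq2 version 1.42.0 (Wald test in R version 4.3.3 with factors by median of ratios, independent filtering at 0.05 and unshrunken fold changes), the test the methods name. The tests were first checked on simulated counts. P-values set the difference between the groups against the spread between mice within a group. The alternatives were edgeR version 4.0.16 (quasi-likelihood, TMM, filterByExpr), TMM or total count factors in DESeq2, no independent filtering, at least 10 counts in at least 4 libraries, no fold threshold, the replicate number as a block, and leaving out each library.

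The members, the pathway and marker lists and the alternatives were chosen with earlier results of these data known. The value in each library was given for called members, the 5 with the highest mean count and those whose groups did not overlap; of the pathway lists, Ifnar1, Ifnar2, Ifngr1, Ifngr2, Irf1, Ifnb1 and up to 3 called genes per list with the smallest adjusted p were named, and a further gene of this rule is not reported here. The erythroid gene Ahsp was not matched in the table.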

Additional observations from a re-analysis of the deposited data

Results flagged for a closer look

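Of 70 groups of 4 normalised counts (35 members in 2 groups), 6 had a library whose gap to the nearest of the others exceeded Dixon's 95% critical share of the group's range, where chance gives about 3.5. In naive replicate 4, Irf7 stood at 259.7, below 404.4 to 422.8 in the other naive libraries, and Isg15 at 77.1, below 112.6 to 113.4. Both genes were called lower in DMM with and without this library. In DMM replicate 2, Herc6 stood at 218.2, below 313.6 to 328.4 in the other DMM libraries. In naive replicate 2, Bst2 stood at 129.0, above 90.6 to 94.2. In DMM replicate 1, Samd9l stood at 1094.7, below 1308.7 to 1349.2, and Ifi44 at 172.5, above 29.0 to 48.7. Herc6, Bst2, Samd9l and Ifi44 were not called.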

How the results depend on the processing

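Of 490 differences of single members under an alternative, 451 kept direction and call, 14 lost the call, 5 gained it and 20 changed sign, none of the latter among the 6 called members. The count of members called lower was 6 and became 3 under total count scaling (Irf7, Ifit1 and Oasl1 lost), 9 without the fold threshold, 5 with edgeR or without independent filtering, 6 with TMM factors or the count filter, and 4 (without naive replicate 3) to 9 (without DMM replicate 1) when a library was left out; no member was called higher under any of these. The median log2 fold change of the members lay between -0.45 and -0.19. Pathway genes called lower numbered 1 under total count scaling, 20 without the fold threshold and 1 to 13 when a library was left out. All genes called rose from 2429 to 4010 without the fold threshold.

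The changes of sign were in members with small differences. Under total count scaling Ddx58 was 0.09, Mx2, Gbp2 and Lgals3bp 0.14, Gbp7 0.00 (just above 0), Xaf1 0.04 and Ifi35 0.06. Mx2 was 0.01 with edgeR, 0.02 with TMM factors and 0.03 with the replicate block, and Lgals3bp 0.01 with TMM factors. When a library was left out, Mx2 ranged from -0.17 to 0.26, Gbp2 from -0.16 to 0.13, Gbp7 from -0.30 to 0.01, Ifi44 from -1.22 to 0.21 and Lgals3bp from -0.11 to 0.08.

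With the replicate number as a block 4 members were called lower (Ifit1 and Oasl1 lost) and 2081 genes in all. Deviations of same-numbered libraries correlated at 0.07, 0.16, -0.14 and 0.11, and not every library correlated best with its own number, so the libraries share only a number. The SE of the log2 fold change was largest in Ifi44 (0.82) and Rsad2 (0.41), followed by Mx2 (0.35), and was 0.31 in Oasl1. Mx2 and Oasl1 had low counts. The 4 mice per group, the lack of a sham group here and the uncertain build limit all values.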

Other observations

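Genes of the pathway lists that act beside the members were read after their values had been seen. Eif2ak2 (PKR, the kinase that stops translation on double-stranded RNA) differed by -0.26 (SE 0.11, DESeq2 adjusted p = 0.0638), and its groups did not overlap. The nuclear body genes Sp100, Sp110 and Sp140 differed by -0.45, -0.54 and -0.56, each with an adjusted p past the threshold in DESeq2 but under 1.5-fold, and 55.5% of the 31-base words of Sp110 and 67.8% of those of Sp140 occur in other genes.

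The chemokine genes Cxcl9 and Cxcl10, which interferon gamma induces, did not follow the members by library. Cxcl9 had 146.9, 195.6, 190.5 and 226.8 normalised counts in naive and 121.9, 276.3, 80.7 and 65.0 in DMM libraries, with the highest value in DMM replicate 2. Cxcl10 had at most 35.5 counts in a library and differed by 0.26 with a 95% interval from -0.83 to 1.36.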
